A study of Mus musculus with 6 samples.

Results

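Mitochondrial ribosomal protein genes encode the protein part of the ribosome inside mitochondria. They were taken as the rows whose gene symbol starts with Mrpl or Mrps followed by a number, with pseudogenes left out, which gave 78 of the 49671 rows of the table. All 78 passed the filter on low values that left 15413 genes for testing, and the lowest member still had 24 reads in its lowest library. By their place in the ribosome 51 members belong to the large subunit and 26 to the small subunit. The remaining one, Mrps36, carries the name but is known as a component of the 2-oxoglutarate dehydrogenase complex. RNA came from basal keratinocytes of the ear epidermis of CD1 mice, an outbred stock, and the series deals with differences between the sexes in epidermal stem cells. The 3 groups were castrated males, females and intact males (called males below), with 2 libraries each. Every library held polyA RNA of 100000 living cells without CD34 (a marker of the hair follicle bulge) and with integrin alpha 6 (a marker of basal cells), sorted by flow cytometry and pooled from 2 mice of 1 litter. For ages and the time since castration nothing is stated, and no genotype other than the stock is named. Because each library is a pool of litter mates, litter and library cannot be told apart. Whether any libraries share a litter is not stated, so the part of litter in the group differences could not be tested.

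Mitochondria translate the few messenger RNAs of their own genome on a ribosome of bacterial descent. Its ribosomal RNAs come from the mitochondrial genome, whereas all of its proteins are encoded in the nucleus, made in the cytosol and imported. Some of these proteins have a counterpart in the bacterial ribosome, and others were added in the mitochondrial lineage. Among the 78 genes, 48 encode proteins with a bacterial homologue and 29 encode proteins specific to mitochondria. The products of mitochondrial translation are subunits of the complexes of oxidative phosphorylation. Promoters of such nuclear genes for mitochondrial proteins are known to be bound by the ETS factor GABPA, by NRF1 and by YY1.

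The promoters of the 4 genes that passed the test in one of the comparisons below, and of the gene with the lowest fold change of females against males, are shown to set their sequences beside their values. Each runs 5′ to 3′ on the strand of its gene from 250 bases before to 50 bases after the annotated start, as given by RefSeq for GRCm38.p6, and capitals mark the matches to the motifs named after them. Mrpl34 was read from chr8:71464676-71464975 on the plus strand, Mrpl12 from chr11:120484387-120484686 on the plus strand and Mrps10 from chr17:47368947-47369246 on the plus strand. Mrpl42 was read from chr10:95501900-95502199 and Mrps24 from chr11:5707652-5707951, both on the minus strand.
Mrpl34: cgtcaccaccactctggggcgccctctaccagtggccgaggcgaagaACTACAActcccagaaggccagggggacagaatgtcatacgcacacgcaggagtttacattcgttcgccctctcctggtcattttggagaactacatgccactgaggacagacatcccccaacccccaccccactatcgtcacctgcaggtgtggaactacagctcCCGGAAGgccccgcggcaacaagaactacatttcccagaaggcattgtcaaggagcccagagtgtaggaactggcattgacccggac
Mrpl12: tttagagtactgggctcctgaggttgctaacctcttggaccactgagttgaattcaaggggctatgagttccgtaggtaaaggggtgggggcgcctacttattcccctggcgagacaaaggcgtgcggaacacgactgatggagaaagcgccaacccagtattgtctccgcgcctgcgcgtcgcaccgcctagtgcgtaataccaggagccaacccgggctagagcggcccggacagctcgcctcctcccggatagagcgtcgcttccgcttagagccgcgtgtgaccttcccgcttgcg
Mrps10: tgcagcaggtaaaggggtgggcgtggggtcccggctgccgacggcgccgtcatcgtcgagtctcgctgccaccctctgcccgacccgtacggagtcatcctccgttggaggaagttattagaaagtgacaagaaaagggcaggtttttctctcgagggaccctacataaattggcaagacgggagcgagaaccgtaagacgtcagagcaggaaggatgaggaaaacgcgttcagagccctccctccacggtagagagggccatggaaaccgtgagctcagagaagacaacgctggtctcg
Mrpl42: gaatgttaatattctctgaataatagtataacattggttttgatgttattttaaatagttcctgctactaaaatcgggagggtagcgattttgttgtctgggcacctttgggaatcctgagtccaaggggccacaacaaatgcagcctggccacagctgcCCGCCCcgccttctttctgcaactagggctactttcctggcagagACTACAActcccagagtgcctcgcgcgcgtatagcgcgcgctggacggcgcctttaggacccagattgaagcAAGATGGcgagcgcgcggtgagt
Mrps24: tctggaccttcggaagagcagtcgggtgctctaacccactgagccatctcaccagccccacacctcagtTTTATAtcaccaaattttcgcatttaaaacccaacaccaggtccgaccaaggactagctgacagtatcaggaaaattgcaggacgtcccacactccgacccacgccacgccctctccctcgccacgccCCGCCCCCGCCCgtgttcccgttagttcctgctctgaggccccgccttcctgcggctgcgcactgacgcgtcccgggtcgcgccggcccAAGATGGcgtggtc

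The Mrpl34 promoter held the ETS core CCGGAAG 37 bases before the start and the ZNF143 core ACTACAA 203 bases before it. In the Mrpl42 promoter the ZNF143 core lay 45 bases before the start, a GC box (GGGCGG, found as CCGCCC on the other strand) 90 bases before it and the YY1 core AAGATGG 28 bases after it. The Mrps24 promoter had a pair of GC boxes that shared no base, the YY1 core and the TATA letters TATAAA on the other strand. None of the 7 motifs searched matched in the windows of Mrpl12 and Mrps10. The windows of Mrps10 and Mrps24 lay wholly inside the gene bounds given below, which come from GENCODE. The RefSeq starts used for these windows thus differ from the GENCODE starts, and windows at the latter were not searched. Across the 75 promoters found for 69 members (9 members had none), 34.7% held the ETS core on either strand, against 8.86% of all 32851 promoters in the table. The YY1 core stood in 17.3% against 6.34%, the NRF1 core GCATGCG in 10.7% against 3.58% and the ZNF143 core in 6.67% against 3.24%. GC boxes were found in 52.0% against 35.7%, the E-box CACGTG in 9.33% against 7.15% and TATAAA in 6.67% against 13.6%. Some members had several windows that overlap. Counted per gene, the E-box stood in 7.25% of the 69 members against 8.09% of all genes, and every other motif kept its direction. At least one of the ETS, NRF1 and YY1 cores stood in 50.7% of member promoters and in 17.3% of all promoters. Member promoters also had a higher share of G and C bases (median 58.7%) than all promoters (median 52.7%). A match is a description of letters and no measure of binding.

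The libraries had 8521741 and 8675809 reads in castrated males, 9648154 and 8412487 in females, and 9265207 and 8466450 in males. One read was worth 0.102 to 0.128 CPM. Values are CPM, reads relative to a library size scaled by TMM (a trimmed mean of log ratios), and n is 2 libraries per group throughout. Basal markers were abundant in every library, with a summed level over 7 genes of 45160 to 45380 CPM in castrated males, 41210 to 43400 in females and 42390 to 48670 in males. The sum hides members that differed, though 0 were called in any comparison. Krt15 (9220 and 6347 CPM), Col17a1 (4723 and 3589) and Itgb4 (557 and 489) were lower in both female libraries than in all others. Krt14 had 13580 and 17440 CPM in females and 13130 and 13390 in males. Krt5, Itga6 and Trp63 overlapped between females and males. Female replicate 2 stood apart from the other libraries: on the first principal component of all genes, which held 56.2% of the variance, it lay at -64.17, female replicate 1 at -28.92 and the 4 male and castrated male libraries between 16.58 and 32.39. Of all genes tested, 31.61% had their highest value in that library. Medians that involve females, and the main counts and the calls of the members, are therefore given with and without it. Leaving it out left 1 female library, whose spread had to be taken from the other groups with 2 residual degrees of freedom, and 49 genes in all were then called in females against males, beside 940 with all libraries. A member's call lost without it is therefore given with its fold change.

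The mitochondrial ribosomal protein genes were well expressed genes of these cells. Per kilobase of transcript, a scale meant for comparing genes of unlike length, their median over the 6 libraries was 36.7 CPM per kilobase, against 8.44 for 15362 tested genes with a known length, and 74 of 78 members lay above that median. This scale rests on the annotated length, and members had shorter transcripts, with a median of 1302 bases against 2641 for tested genes. Large subunit genes had a median of 42.8 CPM per kilobase (n = 51 genes, 1.05 to 137) and small subunit genes one of 31.2 (n = 26 genes, 8.30 to 95.6). The order of the members was nearly the same in every library, with a Spearman correlation across the 78 genes of 0.97 to 0.988 over the 15 pairs of libraries. This is a description of genes that share libraries and lengths. At the top stood the large subunit genes Mrpl52, Mrpl42, Mrpl54 and Mrpl20 and the small subunit gene Mrps34, with 137, 131, 112, 96.0 and 95.6 CPM per kilobase. Lowest were Mrps30 with 1.05, Mrpl3 with 8.14 and Mrpl1 with 8.12 CPM per kilobase. Mrps30 encodes mL65, a protein of the large subunit despite the gene's name, and its level was far below that of any other member.

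Spread over the libraries was small for most members. The coefficient of variation of CPM over the 6 libraries had a median of 13.6% for the members, against 16.6% for the 12886 tested genes within the members' range of levels per kilobase, and it was under 10% for 17 members. That range held most of the 15362 tested genes with a known length, so the comparison is no close match of levels. Mrps34, which was picked after its values were seen as a member with little spread, had 88.3 and 85.2 CPM in castrated males, 85.2 and 95.1 in females and 87.9 and 85.0 in males, with a coefficient of variation of 4.44%. Its groups overlapped and no comparison differed beyond the spread. Mrps14, picked in the same way, encodes a small subunit protein and had 151 and 152 CPM in castrated males, 155 and 174 in females and 149 and 166 in males.

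The members' summed level was highest in females, and within females it was uneven. It came to 4188 and 4344.5 CPM in castrated males, 4658 and 5698 in females, and 4258 and 4297 in males. Both female libraries lay above the other 4, and the distance between the female libraries was larger than that between female replicate 1 and any male library. As group values the sum was 4266 ± 111 CPM in castrated males, 5178 ± 736 in females and 4278 ± 27.8 in males (mean ± SD, n = 2 each). Relative to each gene's own mean over the 6 libraries on the log2(CPM + 0.5) scale, the median member stood at -0.12 and -0.07 in castrated males, 0.03 and 0.30 in females, and -0.08 and -0.07 in males. Of the 78 members, 65 had their highest value in female replicate 2, 1 in female replicate 1, and 2 to 4 in each of the other libraries. Over all genes tested, 31.61% were highest in female replicate 2, 7.03% in female replicate 1 and 10.67% to 18.06% in each of the others.

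**Figure D1:**
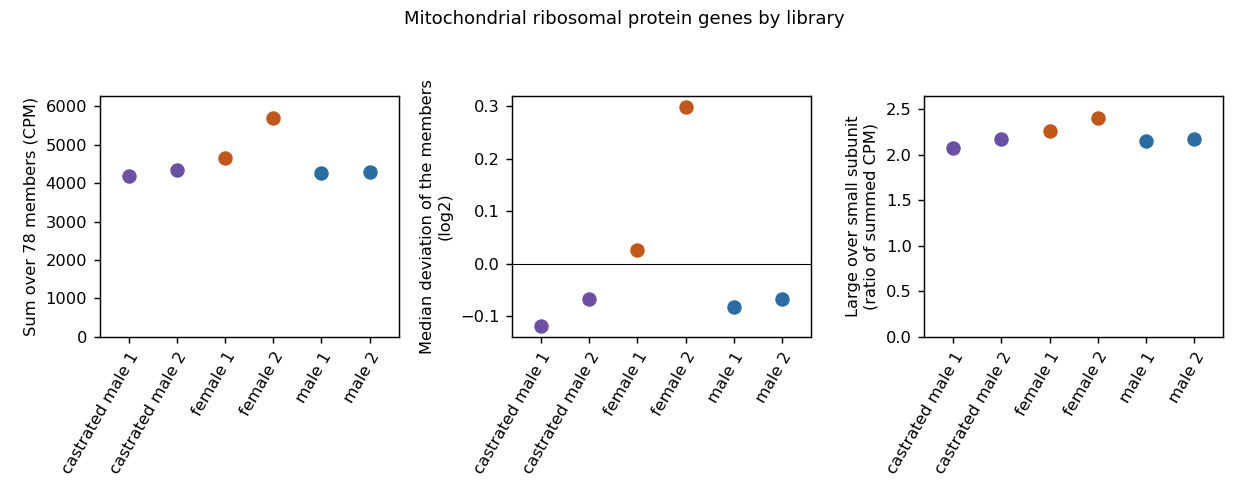
Level of the mitochondrial ribosomal protein genes in each library (x axis; 2 libraries per group, coloured by group): left, CPM summed over the 78 members; middle, the median over members of log2(CPM + 0.5) minus the gene's mean over the 6 libraries; right, summed CPM of the 51 large subunit members divided by that of the 26 small subunit members. Female replicate 2 is highest in all panels, and female replicate 1 lies between it and the other 4 libraries.

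The ratio between subunits was highest in the same library. Summed CPM of the large subunit genes divided by that of the small subunit genes was 2.08 and 2.17 in castrated males, 2.26 and 2.40 in females, and 2.15 and 2.17 in males. Group means were 2.12 ± 0.07 in castrated males, 2.33 ± 0.10 in females and 2.16 ± 0.01 in males (SD, n = 2 each). Both female values lay above all others, and no test was run on this ratio.

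**Figure D2:**
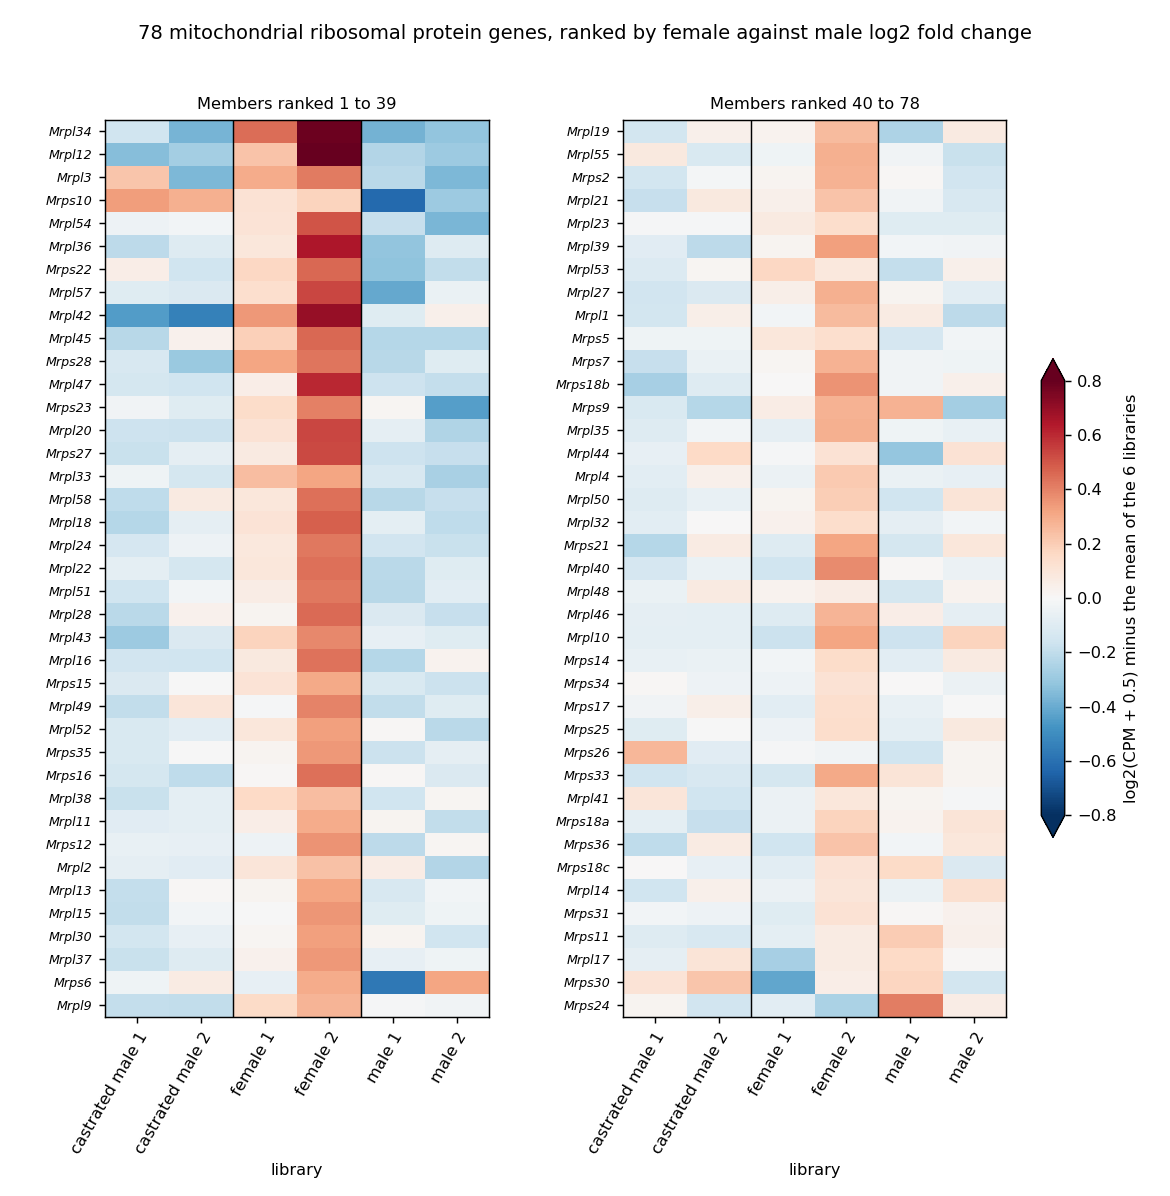
All 78 members (rows, ranked by the log2 fold change of females against males, ranks 1 to 39 on the left) in the 6 libraries (columns): colour gives log2(CPM + 0.5) minus the gene's mean over the 6 libraries, red above and blue below it, with values beyond 0.8 drawn at the end of the scale. The column of female replicate 2 is red for most genes, while Mrps24 at the bottom right is highest in male replicate 1.

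Of the 78 members, 3 rose in females against males and none fell: Mrpl34, Mrpl12 and Mrps10 (limma across all 15413 genes, Benjamini-Hochberg adjusted p below 0.05). This is 3.85% of the members beside 6.1% of all genes called in either direction, 3.7% higher and 2.39% lower, a share near the background. Small differences in one direction were common: 71 members had a log2 fold change above 0, with a median of 0.23 (-0.01 over all genes tested) and a range from -0.40 (Mrps24) to 0.96 (Mrpl34). In 45 members both female libraries lay above both male libraries (57.7%, against 26.6% of all genes), and in 1 member both lay below (1.28%, against 27.2%). An unadjusted p under 0.05 was reached by 24 members, beside 24.9% of all genes. For 39 members (50.0%, against 29.5% of all genes) the 95% interval of the difference lay within 1.5-fold of no change, and for 74 it lay within 2-fold. The width of an interval follows the standard error. In all 3 comparisons its median was 0.15 for members and 0.21 for all genes.

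Mrpl34 encodes bL34m, the counterpart of a small, basic protein of the bacterial large subunit (gene at chromosome 8, 71464959 to 71465747, plus strand). It had 14.2 and 12.2 CPM in castrated males, 21.9 and 27.8 in females and 12.1 and 12.7 in males. Female libraries lay above all others, and castrated males overlapped with males. The log2 fold change of females against males was 0.96 ± 0.20 (SE; limma adjusted p = 0.0295). Without female replicate 2 it was 0.79 with an adjusted p of 0.236, so the call was lost. It was also lost without any one of the male or castrated male libraries (adjusted p = 0.0652 to 0.0670), where the log2 fold change was 0.93 to 0.99, and over all alternatives tried the adjusted p ran from 0.0274 to 0.236.

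Mrpl12 encodes bL12m, the protein of the flexible stalk to which translation factors bind; in human cells it has also been described as a partner of the mitochondrial RNA polymerase (chromosome 11, 120484613 to 120489065, plus strand). Its level was 88.7 and 93.0 CPM in castrated males, 132 and 212 in females and 95.5 and 91.8 in males. The groups of females and males did not overlap, and the female libraries were far apart. The log2 fold change was 0.83 ± 0.20 (SE; limma adjusted p = 0.0462), and without female replicate 2 it was 0.49 (adjusted p = 0.193). Leaving out male replicate 1, male replicate 2 or either castrated male library gave an adjusted p of 0.0843, 0.120 and 0.102, with log2 fold changes of 0.80 to 0.86, and all alternatives together ranged from 0.00586 to 0.193. Exons of Mrpl12 share 200 bases with the antisense RNA Gm16755, which had 454 reads in each castrated male library, 724 and 948 in females and 499 and 443 in males. How the counting treated strand is not stated, and if it ignored strand the reads of the pair cannot be told apart.

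Mrps10 encodes uS10m of the small subunit head (chromosome 17, 47368887 to 47381417, plus strand). Values were 82.7 and 80.15 CPM in castrated males, 71.1 and 74.4 in females and 42.4 and 53.6 in males, so that males formed the low group. The log2 fold change of females against males was 0.60 ± 0.15 (SE; limma adjusted p = 0.0470). Without female replicate 2 it was 0.57, and the call was lost (adjusted p = 0.260). The adjusted p was 0.0614 without female replicate 1, 0.144 without male replicate 1 and 0.113 without either castrated male library, with log2 fold changes of 0.64, 0.44 and 0.60, in a range of 0.0368 to 0.260 over all alternatives.

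Several members just missed the threshold, and their values lay apart without passing. Mrpl42 (mL42, a mitochondria-specific protein) had 107 and 136 CPM in females and 78.1 and 85.8 CPM in males (log2 fold change 0.55 ± 0.15, adjusted p = 0.0622). The mitochondria-specific Mrpl54 had 71.7 and 94.5 CPM in females and 58.5 and 51.5 in males (0.58 ± 0.16, adjusted p = 0.0666). Mrps28 (bS1m) had 47.1 and 50.9 CPM in females and 32.3 and 35.3 in males (0.53 ± 0.15, adjusted p = 0.0674). Mrpl45, related to a yeast factor that holds the ribosome at the inner membrane, had 65.8 and 79.5 CPM in females and 49.3 and 49.2 in males (0.55 ± 0.15, adjusted p = 0.0675). In each of these 4 genes both female libraries lay above both male libraries. When female replicate 2 was left out, the log2 fold changes of Mrpl42, Mrpl54, Mrps28 and Mrpl45 were 0.38, 0.38, 0.48 and 0.41, with limma adjusted p of 0.345 to 0.383.

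Other members with known tasks lay further from the threshold. Mrpl3 (uL3m) had 38.9 and 42.3 CPM in females and 27.1 and 24.4 in males, with a log2 fold change of 0.65 ± 0.20 (adjusted p = 0.0940), and 0.59 without female replicate 2. Mrpl58, a peptidyl-tRNA hydrolase that became part of the large subunit, had 41.1 and 52.4 CPM in females and 32.9 and 33.8 in males (0.47 ± 0.17, adjusted p = 0.135), with 2 bases of its exons shared with the antisense Ict1os. Mrps12, the counterpart of a bacterial protein of the decoding centre, had 48.2 and 63.6 CPM in females and 42.7 and 50.0 in males, and the groups overlapped. For Mrpl1 (the L1 stalk), Mrpl10 (the base of the L12 stalk, with 240 exon bases shared with Gm11574) and Mrpl32 (a protein matured by the m-AAA protease) the log2 fold changes were 0.19 ± 0.18, 0.07 ± 0.18 and 0.14 ± 0.13, with adjusted p of 0.550, 0.857 and 0.555. Mrpl32 alone among these 3 had both female values, 58.1 and 62.4 CPM, above both male values, 53.9 and 55.7 CPM.

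The paralogs Mrps18a, Mrps18b and Mrps18c descend from the gene of bacterial protein S18, and the first encodes a large subunit protein (mL66). Mrps18a had 53.8 and 63.1 CPM in females and 56.7 and 59.8 in males. Mrps18b had 47.2 and 60.6 CPM in females and 46.2 and 48.6 in males, and Mrps18c had 54.4 and 62.2 in females and 64.1 and 53.1 in males. Exons of Mrps18b and Mrps18c share 638 and 174 bases with Gm16279 and Gm43511. The groups overlapped in all 3 paralogs, with log2 fold changes of 0.00 ± 0.14, 0.17 ± 0.16 and -0.01 ± 0.15. Mrps36, which is no ribosomal protein, had 15.03 and 19.9 CPM in females and 16.6 and 18.0 in males (0.00 ± 0.21; 95% interval -0.47 to 0.47), and 3 pseudogenes bear its name.

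Lowest in the ranking was Mrps24, which encodes uS3m of the small subunit (chromosome 11, 5703983 to 5715680, minus strand). It had 15.01 and 13.2 CPM in castrated males, 13.9 and 12.3 in females and 19.8 and 15.4 in males. It was the only member with both female values below both male values, but the difference did not pass the test (log2 fold change -0.40 ± 0.21, adjusted p = 0.261). Mrps30 had 2.45 and 3.59 CPM in females and 3.94 and 3.06 in males (-0.19 ± 0.30, adjusted p = 0.733). Mrpl17 (bL17m) had 99.4 and 125 CPM in females and 134 and 121 in males (-0.19 ± 0.15, adjusted p = 0.474). In both of these genes the groups overlapped, and the exons of Mrps30 share 601 bases with B430218F22Rik on the other strand.

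**Figure D3:**
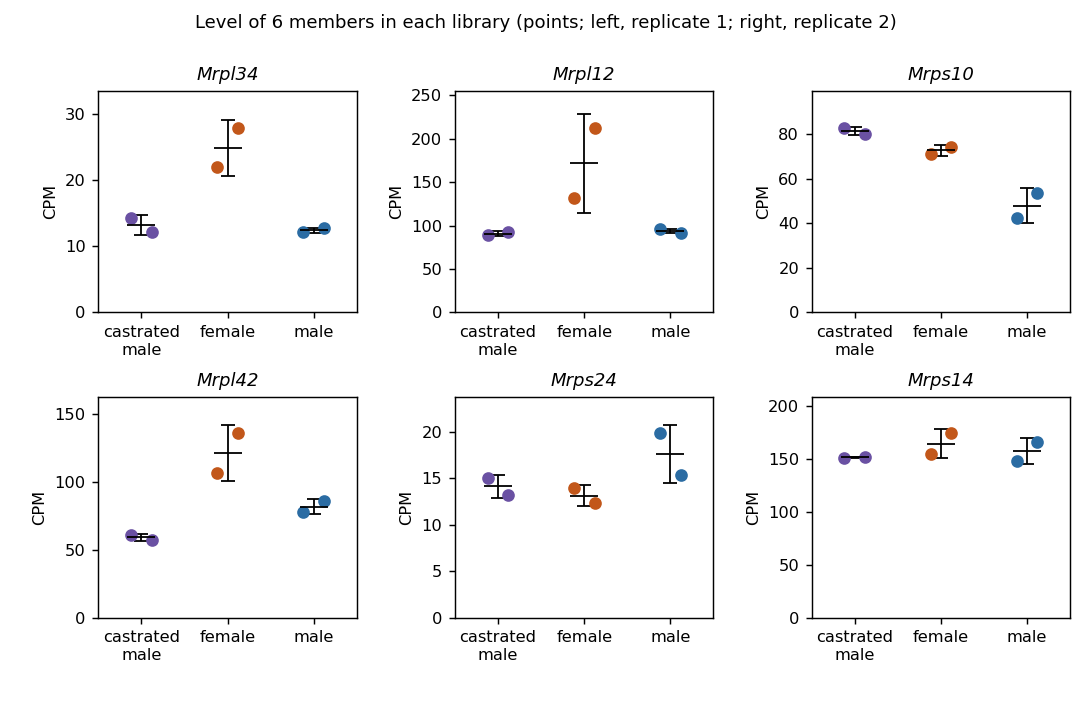
CPM of 6 members in each library (points; the left point of a pair is replicate 1) with the group mean (horizontal bar) and SD (error bar), in castrated males, females and males. Mrpl34 and Mrpl12 are high in females alone, Mrps10 is low in males, Mrpl42 is highest in females and lowest in castrated males, Mrps24 is highest in males, and the male values of Mrps14 overlap with those of both other groups.

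The size of the difference between females and males depended on the library that stood apart. Without female replicate 2, no member was called in females against males (0.321% of all genes were), 57 members had a log2 fold change above 0 and their median was 0.09. Female replicate 1 by itself lay above both male libraries in 45 members (57.7%, against 33.7% of all genes). Without female replicate 1 instead, 15 members were called (11.3% of all genes were) and the median was 0.35. With castrated male replicate 1, castrated male replicate 2 or male replicate 1 left out, 0 members were called beside 274, 274 and 709 genes in all, and without male replicate 2 there was 1 beside 533 genes. Calls of members were thus also lost on leaving out libraries that this comparison does not contain. Several measures of the female libraries differed from those of the male libraries, not all of them in step with the members. The Langerhans and dendritic cell markers (6 listed genes, 3 of them called higher in females) summed to 1078 to 2344 CPM in females and 373 to 423 in males, and the suprabasal keratinocyte markers (6 listed, 3 called higher) to 1102 to 1431 in females and 644 to 793 in males. Cd74, H2-Aa and H2-Ab1, genes of antigen presentation by MHC class II, were the 3 called Langerhans and dendritic cell markers and carried almost all of that sum. Cd207, which marks Langerhans cells, had 5.32 and 6.92 CPM in females and 6.60 and 8.46 in males. Itgax had 1.12 and 1.15 CPM in females and 0.852 and 1.65 in males, and Epcam had 13.4 and 15.4 in females and 10.8 and 6.70 in males. None of these 12 markers was at 0 in all libraries. T cell markers (6 listed, 0 called) summed to 17.2 to 74.1 CPM in females and 95.9 to 106 in males. Thy1 made up most of that sum, with 8.89 and 60.4 CPM in females and 80.5 and 97.05 in males, while Cd3d, Cd3e, Cd3g, Ptprc and Trdc stood below 5 CPM in each library and their groups overlapped. In Thy1, female replicate 2 thus lay nearer to the males than female replicate 1. Macrophage and neutrophil markers (5 listed, 2 tested, 1 called higher) summed to 22.3 to 35.3 CPM in females and 15.9 to 19.5 in males. Csf1r had 18.2 and 22.3 CPM in females and 14.2 and 17.9 in males, and Cxcr2 had 3.37 and 11.8 in females and 0.959 and 0.705 in males. Adgre1 went the other way, with 0.409 and 0.256 CPM in females and 0.746 and 0.822 in males. Lyz2 and Ly6g had at most 6 reads in any library. Melanocyte markers (6 listed, 1 called lower) summed to 32.9 to 41.3 CPM in females and 46.9 to 56.4 in males. Mitf had 6.85 and 3.21 CPM in females and 15.1 and 17.6 in males, and Dct had 5.32 and 8.975 in females and 9.05 and 9.40 in males. In Tyr, Tyrp1 and Pmel the groups overlapped, and Sox10 had at most 2 reads in any library. The Spearman correlation of a gene's deviation with transcript length, over all genes, was -0.06 and -0.17 in females and 0.08 and 0.09 in males. The part of these measures in the result was not tested, and in bulk RNA fewer cells of a type and less RNA per cell cannot be told apart.

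Levels of these genes in castrated males were close to those in intact males. None of the 78 members was called in castrated males against males by limma, where 0.0389% of all genes (6 genes) were, 0.013% higher and 0.026% lower, and 2 members had an unadjusted p under 0.05 (5.93% of all genes did). Fold changes fell evenly to both sides, with 40 above 0 and a median of 0.00 (0.00 over all genes). The values of castrated males lay wholly above those of males in 8 members (10.3%, against 17.3% of all genes) and wholly below in 15 (19.2%, against 18.2%). For 69 members (88.5%) the 95% interval of the difference lay within 1.5-fold of no change, against 43.6% of all genes, and for 77 within 2-fold. The smaller standard error of the members, given above, enters into these shares. The summed level, 4266 ± 111 CPM in castrated males and 4278 ± 27.8 in males, differed by less than the spread between the castrated male libraries. Without female replicate 1 or 2 in the fit, still 0 members were called, beside 0.0592% and 0.0589% of all genes.

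The exception past 2-fold limits was Mrps10, with the values given above. Its log2 fold change of castrated males against males was 0.77 ± 0.15 (SE; 95% interval 0.436 to 1.097), both castrated male libraries lay above both male libraries, and the adjusted p was 0.242, so it did not pass the test. Mrpl42 had the lowest fold change, with 61.2 and 57.2 CPM in castrated males and 78.1 and 85.8 in males (-0.47 ± 0.15, adjusted p = 0.713), and its groups did not overlap. Mrpl54 had 64.5 and 65.35 CPM in castrated males and 58.5 and 51.5 in males (0.24 ± 0.16, adjusted p = 0.964). Mrpl3 had 36.9 and 24.5 CPM in castrated males and 27.1 and 24.4 in males (0.22 ± 0.20). Mrps24 (-0.30 ± 0.21), Mrps11, which encodes uS11m of the small subunit platform (-0.24 ± 0.15), and Mrps18a (-0.20 ± 0.14) were the other members with the lowest values or smallest p, with adjusted p of 0.969, 0.956 and 0.974. The further members named above had log2 fold changes between -0.19 (Mrps18b) and 0.155 (Mrps30), none called.

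Castrated males were also set against females, with the female libraries of the first comparison and the castrated male libraries of the second. Of the 78 members 1 fell, Mrpl42, and none rose (1.28% of members called lower, beside 1.15% of all genes called lower, 0.571% higher and 1.73% in either direction). Only 5 members had a log2 fold change above 0, and the median was -0.25 (0.01 over all genes). In 49 members both castrated male libraries lay below both female libraries (62.8%, against 28.3% of all genes), and in 2 they lay above (2.56%, against 29.4%). An unadjusted p under 0.05 was reached by 20 members, beside 21.6% of all genes. The 95% interval lay within 1.5-fold of no change for 44.9% of members and 30.3% of all genes.

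Mrpl42 (chromosome 10, 95480805 to 95501940, minus strand) had 61.2 and 57.2 CPM in castrated males and 107 and 136 CPM in females. Males lay between the groups, with no overlap on either side. The log2 fold change of castrated males against females was -1.02 ± 0.15 (SE; limma adjusted p = 0.0184), with a 95% interval of -1.36 to -0.68. Without female replicate 2 it was -0.85 with an adjusted p of 0.117, so the call was lost. It was also lost without castrated male replicate 1 or 2, with log2 fold changes of -1.07 and -0.97 and adjusted p of 0.184 and 0.182. Over all alternatives the adjusted p ran from 0.00904 to 0.184. Its exons share no base with those of another gene in the annotation.

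Mrpl34 and Mrpl12 had log2 fold changes of -0.88 ± 0.20 in both cases and did not pass (adjusted p = 0.0644 and 0.0666). Mrps28 had 34.5 and 30.6 CPM in castrated males and 47.1 and 50.9 in females (-0.58 ± 0.15, adjusted p = 0.0823). Mrpl43, a mitochondria-specific protein of the large subunit, had 40.8 and 46.2 CPM in castrated males and 56.6 and 65.6 in females (-0.48 ± 0.14, adjusted p = 0.111). Mrpl9 (bL9m) had 48.45 and 48.4 CPM in castrated males and 61.8 and 67.0 in females (-0.41 ± 0.13, adjusted p = 0.124). In all 5 genes the groups did not overlap, and without female replicate 2 the log2 fold changes of Mrpl34, Mrpl12, Mrps28, Mrpl43 and Mrpl9 were -0.71, -0.53, -0.53, -0.38 and -0.35. Exons of Mrpl43 and Mrpl9 share 385 and 157 bases with Twnk and Oaz3 on the other strand. At the other end stood Mrps30 (0.35 ± 0.30), Mrps10 (0.16 ± 0.15) and Mrpl17 (0.12 ± 0.15), with adjusted p of 0.529, 0.547 and 0.670. Without female replicate 2 no member was called (0.236% of all genes were), 20 had a fold change above 0 and the median was -0.11, while without female replicate 1 there were 8 calls (8.43% of all genes) and a median of -0.40. Leaving out either castrated male library gave 0 member calls (35 and 30 genes in all), and leaving out male replicate 1 gave 2 (605 genes). The Langerhans and dendritic cell markers, 3 of 6 called lower, summed to 399 to 463 CPM in castrated males and 1078 to 2344 in females. The 3 were again Cd74, H2-Aa and H2-Ab1. Cd207 had 6.82 and 5.01 CPM in castrated males and 5.32 and 6.92 in females, and Itgax had 0.682 and 2.05 in castrated males and 1.12 and 1.15 in females, both with overlap. Epcam had 11.2 and 9.79 CPM in castrated males and 13.4 and 15.4 in females. The correlation of deviation with transcript length was 0.13 and 0.04 in castrated males against -0.06 and -0.17 in females. Their part in these values was not tested.

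With all libraries, the median differences that involve females went the same way in both subunits. In females against males, 35 of 51 large subunit genes (68.6%) and 10 of 26 small subunit genes (38.5%) had both female values above both male values, against 26.6% of all genes, with median log2 fold changes of 0.24 and 0.18 and 2 and 1 calls. In castrated males against females the medians were -0.28 over large subunit genes and -0.20 over small subunit genes, with 1 and 0 calls, and 34 of 51 (66.7%) and 15 of 26 (57.7%) had both castrated male values below both female values, against 28.3% of all genes. With female replicate 2 left out, the medians over large and small subunit genes were 0.14 and 0.06 in females against males and -0.14 and -0.03 in castrated males against females, with 0 calls. In castrated males against males they were 0.00 and -0.03. Female replicate 1 by itself lay above both male libraries in 68.6% of large and 38.5% of small subunit genes, against 33.7% of all genes. It lay above both castrated male libraries in 66.7% and 57.7%, against 35.7% of all genes. By descent, the 48 genes with a bacterial homologue and the 29 mitochondria-specific genes had medians of 0.23 and 0.24 in females against males, and the 3 calls were all among the first. They were 0.09 and 0.135 without female replicate 2. No test was run between these subsets.

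Most members deviated together over the 6 libraries. Pearson's r of a member's log2(CPM + 0.5) with the mean of the other members had a median of 0.855 and was at least 0.8 for 47 members. It was below 0 for 4 members: Mrps24 (-0.64), Mrps30 (-0.17), Mrps26 (-0.16) and Mrpl17 (-0.05). Over the 5 libraries without female replicate 2 the median was 0.512, with 18 members at 0.8 or more and 18 below 0. Among 15335 genes outside the set, those most like the members' mean were Metap2, which encodes a methionine aminopeptidase (r = 0.9997), Npm3, a nucleoplasmin family protein (0.9992), Gm10123 (0.9991), Degs1, a sphingolipid desaturase (0.9973), and Rpl28, a cytosolic ribosomal protein (0.9965). Metap2 had 308 and 320 CPM in castrated males, 344 and 430.5 in females and 312 and 316 in males. Over the 5 libraries without female replicate 2, r of these genes, in the same order, was 0.998, 1.0, 0.993, 0.973 and 0.972. The genes were picked for their r over all 6 libraries. Values over 6 libraries are descriptions that share 1 outlying library, and 4.44% of the 15335 genes outside the set reached an r of 0.95. The share of those genes at 0.8 or more is not given, so whether 47 members is an unusual number cannot be told.

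Among lists of genes that act with the mitochondrial ribosome, medians in females against males ran on both sides of 0. The mitoribosome proteins with other names, such as Dap3 and Ptcd3 (5 tested), had a median log2 fold change of 0.30 in females against males, and all 5 had both female values above both male values, with 0 calls. The list also held Ict1 and Mrp63, older names of Mrpl58 and Mrpl57, which were tested among the members. Assembly factors of the ribosome (25 of 27 tested) had 0 calls and a median of -0.06, with 11 above 0. Translation factors (15 of 16 tested) had a median of 0.12 and 1 call: Gfm1, an elongation factor, had 88.85 and 117 CPM in females and 64.5 and 65.9 in males (log2 fold change 0.64, limma adjusted p = 0.0463; 0.44 with an adjusted p of 0.270 without female replicate 2). Mitochondrial aminoacyl-tRNA synthetases (17 tested) and genes of mitochondrial DNA maintenance and transcription (15 tested) had 0 calls each, with medians of -0.05 and 0.00. The messenger RNAs of the mitochondrial genome (11 of 13 tested) had a median of 0.30 and 0 calls. Of 12 regulators of mitochondrial genes, all tested, 8 had a log2 fold change above 0 and 4 below, with 0 calls and a median of 0.12. The smallest p among them belonged to Perm1, a regulator of mitochondrial genes described in muscle, which had 9.10 and 6.795 CPM in females and 14.8 and 12.7 in males (log2 fold change -0.76, limma adjusted p = 0.0744). Ppargc1b, a coactivator of genes for mitochondrial proteins, had 39.2 and 49.4 CPM in females and 29.2 and 31.7 in males (0.52, adjusted p = 0.0923). Pprc1 had 81.6 and 102 CPM in females and 59.8 and 71.9 in males, and Esrra had 19.9 and 16.9 in females and 15.7 and 13.6 in males (0.47 and 0.32, adjusted p = 0.135 and 0.337). Without female replicate 2, the medians over the other mitoribosome proteins, assembly factors, translation factors and regulators were 0.17, -0.02, -0.05 and 0.06. Those over the synthetases, the genes of mitochondrial DNA maintenance and transcription and the messenger RNAs of the mitochondrial genome were -0.08, -0.04 and 0.285.

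Other groups of nuclear genes had medians above that of the members in females against males. Of 79 tested genes of oxidative phosphorylation, 18 rose in females against males (22.8%) with a median log2 fold change of 0.46, and of 24 genes of mitochondrial import 2 rose (Timm13 and Tomm5) with a median of 0.42. Cytosolic ribosomal proteins (79 tested) had a median of 0.28 with 2 calls higher (Rps12 and Rpl41) and 1 lower (Rpsa), beside the members' median of 0.23. Without female replicate 2 the log2 fold changes of Rps12, Rpl41 and Rpsa were 0.52, 0.51 and -1.18. Of 23 genes of G2 and mitosis, 21 rose with a median of 1.37. On leaving out female replicate 2, the medians over genes of oxidative phosphorylation, import, cytosolic ribosomal proteins and G2 and mitosis were 0.29, 0.255, 0.18 and 1.05, and the calls were 1, 0, 1 (Rpsa, lower) and 0. In castrated males against males the medians of these 4 groups were -0.02, -0.01, 0.00 and 0.55, with 1, 0, 1 and 0 calls. In castrated males against females they were -0.47, -0.42, -0.30 and -0.81, with 7, 0, 0 and 1 calls, and without female replicate 2 they were -0.31, -0.285, -0.18 and -0.56 with 0 calls. No difference between groups of genes was tested.

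**Figure D4:**
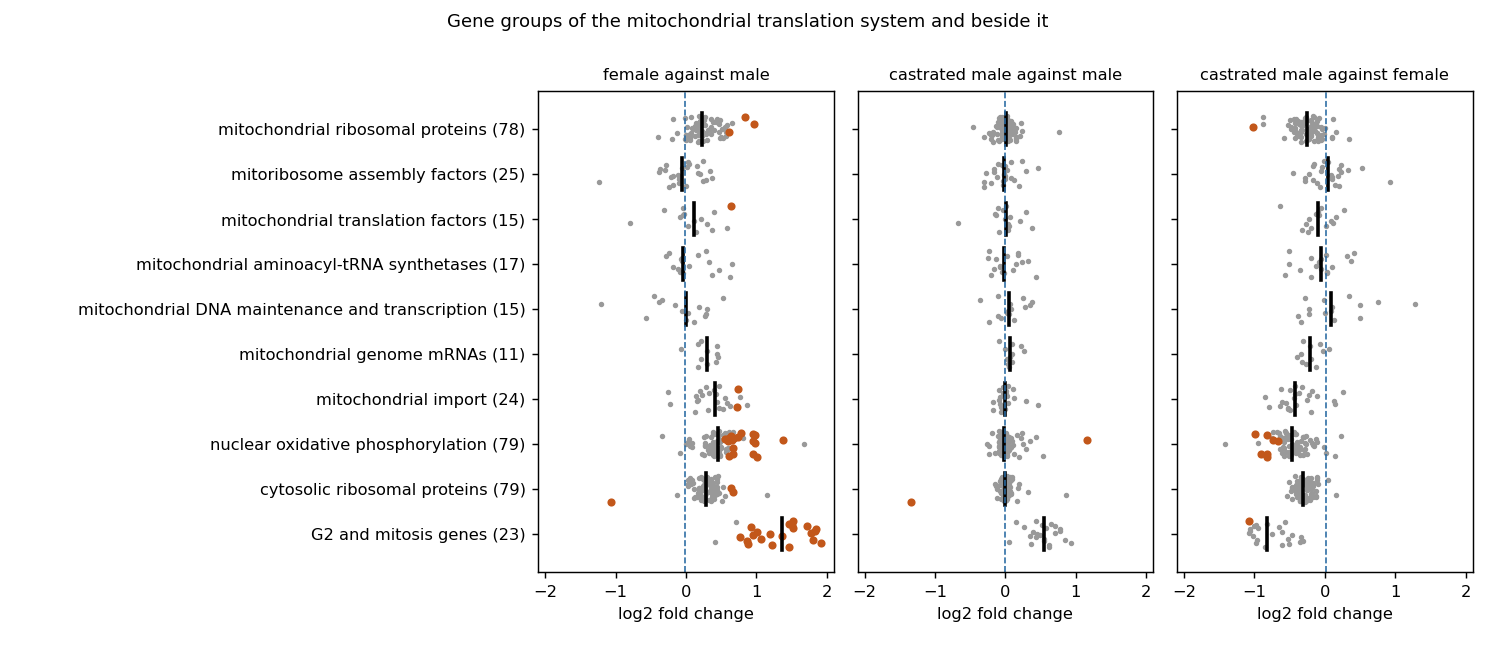
Log2 fold changes (x axis) of every tested gene (points; orange where called at an adjusted p below 0.05) in 10 groups (rows, number of tested genes in brackets) for the 3 comparisons; black bars are group medians and the dashed line is the median of all 15413 genes. The members' median is 0.23 in females against males, 0.00 in castrated males against males and -0.25 in castrated males against females.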

How the data were processed

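RNA of 6 libraries was sequenced. Tools named by the submitters' processing notes are STAR 2.7.5a, HTSeq 0.11.1, FastQC and Picard, and builds are mm10 and GRCm38. Annotation, scaling and strand setting were not given in the sources used here. Values as deposited by the authors are a score: reads per gene scaled to a total of 19999024 to 19999732 per library and rounded. Dividing by the step of each column (2.07 to 2.38) returned whole reads, with 100.0% of values within the rounding error; the same step search was tested on simulated columns. The second male library carries another number in its column name, and its title was used.

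Library sizes were scaled by TMM (factors 0.927 to 1.03). Genes with at least 1.16 CPM (10 reads at the median depth) in 2 libraries and 15 reads in total were tested, 15413 in all, which include all 78 members. Log2(CPM + 0.5) was fitted with limma (version 3.58.1, R 4.3.3) over all 6 libraries, with a mean for each group, a trend in the prior variance, 3 residual degrees of freedom and prior degrees of freedom of 5.82. Adjusted p-values are Benjamini-Hochberg values over all genes tested, two-sided, and a gene was called below 0.05. Fold changes on the log2(CPM + 0.5) scale understate changes of genes with few reads. P-values measure the spread between pools of mice, and intervals carry no adjustment. The procedure was tested on simulated data. Lengths (longest principal transcript) and gene positions came from GENCODE M21 (GRCm38), and promoters from RefSeq.

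The members and all gene lists were chosen with earlier results of these data known. Named are, in each comparison, the members called, or the 6 with the smallest p where fewer were called, the 3 highest and 3 lowest by fold change, and 13 members of known function; other names were chosen after their values were seen. The alternatives were 17 other settings, 1 of them (voom weights) chosen after seeing the data.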

Additional observations from a re-analysis of the deposited data

How the results depend on the processing

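The direction of the median in females against males and in castrated males against females, and the absence of calls in castrated males against males, held under all 17 alternatives tried, and no called value changed its sign. The median of castrated males against males stayed between -0.04 and 0.02. The number of calls did not hold. In females against males, 3 members were called: 1 was with a pseudocount of 0.1, with voom weights and with the replicate number as a block, and 0 without the filter, without a trend in the prior variance, with only the 2 groups compared and with the block plus a correction for transcript length; leaving out 1 library gave 0 to 15. In castrated males against females, 1 member was called: 0 were without the filter and without the trend, 2 with only the 2 groups compared, 1 with the block, and 0 to 8 with 1 library left out. The cause was not tested. Members above 0 there numbered 5, but 12 with scaling to total reads and 10 with the length correction, with or without the block, and 4 to 20 with 1 library left out. Leaving out 1 library gave medians of 0.09 to 0.35 in females against males and of -0.40 to -0.11 in castrated males against females. Of the 17 alternatives, Mrpl42 kept its call in 12, Mrpl34 in 8, Mrpl12 in 5 and Mrps10 in 3, with highest adjusted p of 0.184, 0.236, 0.193 and 0.260. The replicate numbers used for the block share only a number: the differences between replicates 1 and 2 correlated across genes with r = -0.15 (females and males), -0.01 (castrated males and males) and 0.19 (castrated males and females).

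With 2 pools per group and 3 residual degrees of freedom, the median standard error of a member's log2 fold change was 0.15. Exons of 26 members share bases with another gene, 24 of 30 such overlaps on the opposite strand. How the authors' counting divided those reads is not stated.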

Other observations

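Of 5 rows named as pseudogenes of these genes and left out, Mrpl23-ps1 had 81 and 72 reads in castrated males, 109 and 86 in females and 79 and 91 in males. Mrpl48-ps had 15 to 21 reads in each library, and the 3 Mrps36 pseudogenes had at most 7. How the counting divided reads between Mrpl23, Mrpl48 and Mrps36 and these copies is not stated.

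The ribosomal RNAs of the mitochondrial genome were measured beside the members. The small subunit RNA mt-Rnr1 had 360 and 254 CPM in castrated males, 448 and 426 in females and 594 and 436 in males. The large subunit RNA mt-Rnr2 had 1476 and 1358 CPM in castrated males, 1764 and 1883 in females and 1872 and 1500 in males. Their log2 fold changes of castrated males against males were -0.75 and -0.24 (limma adjusted p = 0.545 and 0.956), with both castrated male values below both male values in each, as in 18.2% of all genes tested.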
